A study of Canis lupus familiaris with 77 samples.

Results

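miR-221 and miR-222 are a pair of microRNAs (miRNAs) whose hairpins lie next to each other. They were chosen by name: of the 650 miRNA entries of a beagle tissue atlas, the 2 whose names begin with cfa-miR-221 and cfa-miR-222, the canine mature forms, were taken. Both entries are also annotated with the 3p arm of the human and the rat hairpin. In RefSeq's genes of a different dog assembly, UU_Cfam_GSD_1.0, MIR221 and MIR222 were neighbours on chromosome X with 0 genes between them.

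miRNAs are short RNAs that guide a silencing complex to messenger RNAs, which they recognise mainly through a few bases near their 5′ end, the seed. miR-221 and miR-222 have the same seed and are usually treated as 1 family, with the receptor KIT and the cell cycle inhibitor CDKN1B among their best known targets. They are known from the vessel wall, where they occur in endothelium and smooth muscle, and from blood progenitors, where they fall as red cells mature.

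The atlas measured small RNA by sequencing in 16 tissues of untreated male Beagle dogs less than a year old. Values were available here for 76 libraries, with 5 samples for each of 14 tissues, 4 for colon and 2 for sciatic nerve. The dogs were perfused with buffered saline before the organs were taken, and RNA from bone marrow and plasma was extracted differently from that of solid tissue, so extraction and tissue cannot be told apart for them. The study also reports low RNA integrity for plasma, bone marrow and some kidney samples, and a lower share of mapped reads in bone marrow. RNA quality and tissue therefore cannot be told apart for bone marrow and plasma either. The study describes its sciatic nerve samples in different ways, so these 2 libraries may or may not stem from different animals. The study drew all tissues from the same 5 dogs, so libraries of different tissues are not independent, but the labels do not tie a library to a dog. No dog was treated, and the tissues themselves were the groups compared. The levels below are in RPM, the reads of a miRNA scaled to all reads aligned to miRNAs in that library, and a replicate number only names a sample.

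The libraries held from 157871 to 7896424 miRNA reads, so 3 reads, the limit that a count of 0 allows, correspond to 0.380 to 19.0 RPM. This limit and the intervals on shares cover counting error only. Of 34 marker entries for the labelled tissues, 26 had their highest median in that tissue. The exceptions were 1 arm of miR-124, both arms of miR-142 in bone marrow and the 5 miR-181 entries meant to mark thymus. Thymus replicates 1 and 4 did have more cfa-miR-181a than any brain library, 426312 and 500018 RPM, while replicates 2, 3 and 5 had 41991 to 53348 RPM. In testis replicate 3, cfa-miR-202 was at 0.493 RPM against 3340 to 5345 RPM in replicates 1, 4 and 5, and replicate 2 was intermediate at 241 RPM. In the library labelled skeletal muscle replicate 4, cfa-miR-206 and cfa-miR-499 had 1 read each, against 87 to 1394 and 22 to 943 reads in the other muscle samples. Results for testis, skeletal muscle and thymus are therefore given with and without those libraries.

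Both miRNAs were found in every tissue. Reads of each were present in 76 of 76 libraries, and the tissue median exceeded 100 RPM in 15 of 16 tissues, testis being the exception for cfa-miR-221 and heart for cfa-miR-222. cfa-miR-221 had a median of 649 RPM over all libraries and ranged from 12.7 to 3714 RPM. The median of cfa-miR-222 was 422 RPM, with a range of 19.0 to 3306 RPM. Neither was among the leading miRNAs of a tissue. By tissue median, cfa-miR-221 ranked no higher than 35 (in bone marrow) and cfa-miR-222 no higher than 43 (in brain).

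**Figure D1:**
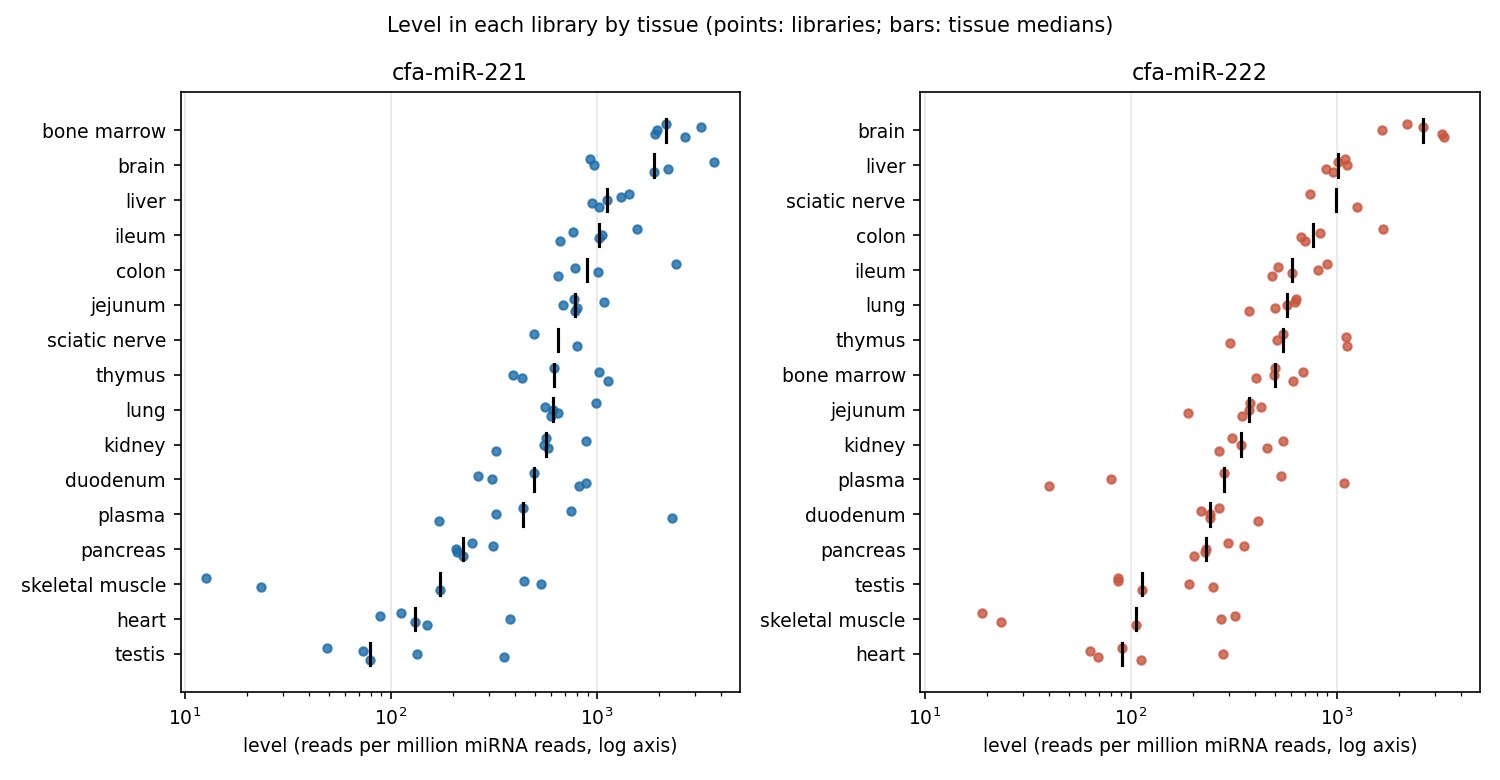
Level of cfa-miR-221 (left) and cfa-miR-222 (right) in each library, in RPM on a log axis. Points are libraries, black bars are tissue medians, and tissues are ordered by median in each panel. Bone marrow heads the left panel at 2157 RPM and stands in the middle of the right panel at 501 RPM.

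The order of the tissues differed most between the members in bone marrow. For cfa-miR-221 the medians fell from bone marrow (2157 RPM) and brain (1888 RPM) through liver (1114 RPM), ileum (1024 RPM) and colon (897 RPM) to skeletal muscle (173 RPM), heart (131 RPM) and testis (79.2 RPM). All 15 steps between neighbours in this order lay within overlapping sample ranges. For cfa-miR-222 the order began with brain (2617 RPM), liver (1016 RPM), sciatic nerve (995 RPM) and colon (763 RPM) and ended with testis (113 RPM), skeletal muscle (106 RPM) and heart (91.0 RPM). Of its 15 steps only that from brain to liver was free of overlap, since the lowest brain sample had 1654 RPM and the highest liver sample 1126 RPM. The highest tissue median was 27.2-fold the lowest for cfa-miR-221 and 28.8-fold for cfa-miR-222.

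Over all 120 pairs of tissues, the sample ranges did not overlap in 49 pairs (40.8%) for cfa-miR-221 and in 57 pairs (47.5%) for cfa-miR-222. Across the 266 miRNAs whose median passed 100 RPM somewhere, the middle value was 41.7%, in a set that many miRNAs entered through the tissue where they are high and of which 60 passed 100 RPM in all 16 tissues.

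To ask in which tissues each member stood above or below the rest, each tissue was compared with the mean of the other 15 by edgeR's quasi-likelihood test. Changes are log2 fold changes, and p-values were adjusted by the Benjamini-Hochberg method over the 480 miRNAs tested in each comparison and measure the spread between these samples. cfa-miR-221 was higher in 4 tissues (bone marrow, liver, colon and plasma) and lower in 4 (testis, heart, pancreas and skeletal muscle). cfa-miR-222 was higher in 3 (brain, liver and colon) and lower in 3 (testis, heart and skeletal muscle). In 5 of these tissues, liver, colon, testis, heart and skeletal muscle, both members were called in the same direction. The calls of cfa-miR-221 in liver, colon, plasma and skeletal muscle changed with the scaling or with the library left out, as given below. Whether the fold changes of the members differed from each other was not tested.

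**Figure D2:**
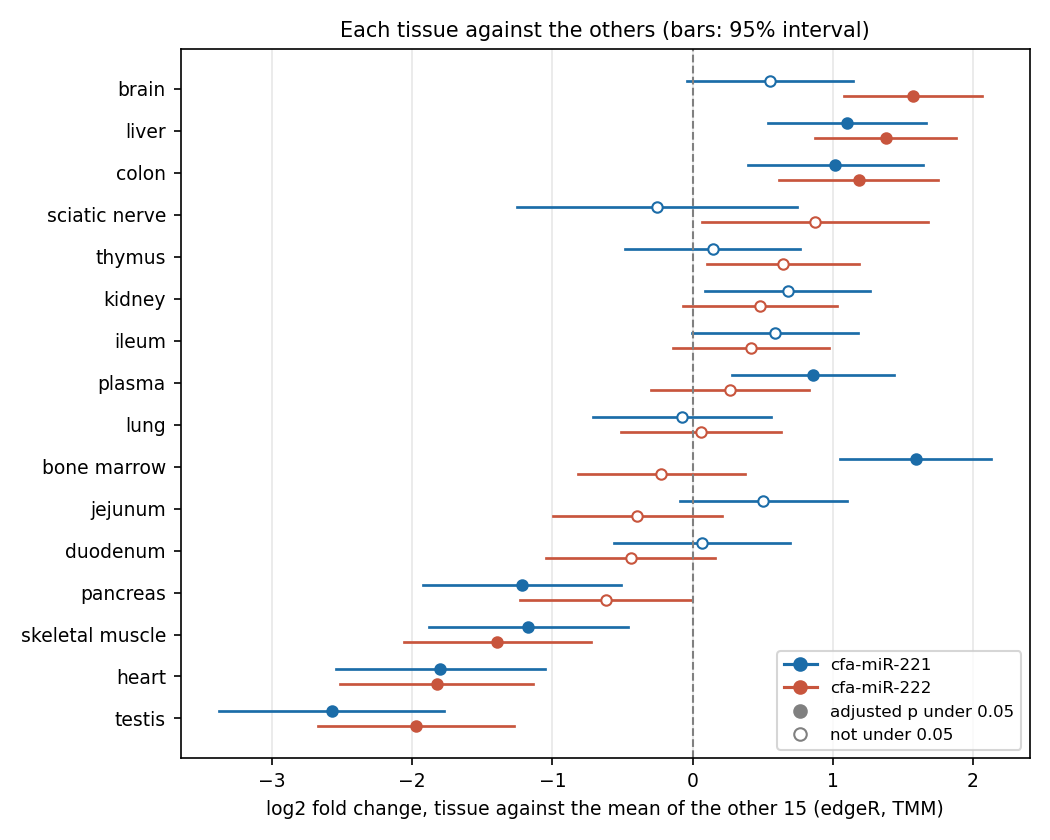
Log2 fold change of each tissue against the mean of the other 15, from edgeR with TMM scaling, for cfa-miR-221 (blue) and cfa-miR-222 (red). Horizontal bars are 95% intervals and filled points have an adjusted p under 0.05; in bone marrow the blue point is at 1.59 and the red point at -0.22.

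Bone marrow was the tissue with the highest cfa-miR-221. The 5 samples had 2674, 1904, 1956, 3184 and 2157 RPM. Their range overlapped that of brain and single samples of colon and plasma, and stood clear of the other 12 tissues. The difference from the other tissues was 1.59 (SE 0.27, edgeR adjusted p = 1.37e-06), in a comparison in which 16.5% of miRNAs tested were called higher and 24.6% lower.

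cfa-miR-222 did not stand out in the same libraries. Its 5 bone marrow samples had 609.9, 406, 497, 682 and 501 RPM and lay within the range of the remaining tissues. The difference was -0.22 (SE 0.30, edgeR adjusted p = 0.723), and its sign changed with the scaling and with the library left out, reaching 0.34. Bone marrow libraries were among the smallest, with 162310 to 239023 reads, and cfa-miR-222 rested there on 92 to 129 reads per library. In bulk samples, fewer cells of a type and less RNA per cell cannot be told apart, which holds for every tissue comparison here.

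Markers of blood cells were high in bone marrow. Of the 11 entries for miRNAs of red cells, myeloid cells and leukocytes, such as miR-451, miR-223 and miR-155, 10 were higher and 0 lower than in the other tissues, with a median log2 fold change of 3.005 against -0.97 over all miRNAs tested. The exception was cfa-miR-150 (0.61, edgeR adjusted p = 0.214). Their summed level was 113292 to 176440 RPM in bone marrow and 586021 to 829903 RPM in plasma. It was as high in heart, at 100771 to 275438 RPM, where cfa-miR-486 alone had a median of 113425 RPM, while cfa-miR-451 had a median of 38793 RPM in bone marrow and 2029 RPM in heart. Of the 6 entries for miRNAs of the vessel wall (miR-126 of endothelium, miR-143 and miR-145 of smooth muscle), 1 was higher and 2 lower, and their sum was 28347 to 43978 RPM. The part of these cells in the levels of the pair was not tested.

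Brain was the tissue with the highest cfa-miR-222. The 5 samples had 3306, 3219, 1654, 2617 and 2178 RPM. All but the lowest of these exceeded every sample of the other tissues, whose maximum was 1667 RPM in colon replicate 5. The difference from the other tissues was 1.57 (SE 0.25, edgeR adjusted p = 7.43e-08), where 45.2% of miRNAs were called higher in brain and 28.1% lower. It was 2.36 with DESeq2 and 2.67 with the library size alone.

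By the study's criteria for a tissue-enriched (TE) miRNA, a mean more than 5-fold that of all other samples and an adjusted p under 0.05, cfa-miR-222 was TE in brain. No minimum level and no further filter was applied. The fold was 5.47, just past that limit, with a two-sided exact rank-sum p of 2.17e-07 (adjusted p = 1.27e-06). TE was met in brain by 29.1% of the 650 miRNAs. With library sizes scaled by the trimmed mean of M values (TMM), the fold was 2.57 and cfa-miR-222 was TE in no tissue.

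cfa-miR-221 was also high in brain in RPM, but its call depended on the scaling. The samples had 1888, 2209.8, 967, 3714 and 921 RPM, and that of replicate 4 was the highest of all 76 libraries. Replicates 3 and 5 lay below samples of 8 other tissues, bone marrow, liver, ileum, colon, thymus, jejunum, lung and plasma. The difference was 0.55 (SE 0.30, edgeR adjusted p = 0.0975) with TMM, and 1.73 (edgeR adjusted p = 3.19e-06) with the library size alone. Brain libraries had a median TMM factor of 2.28, and without TMM the median of all miRNAs rose by 1.09 in this comparison, the largest shift of any tissue. By fold over all other samples cfa-miR-221 reached 3.28 in bone marrow (exact rank-sum adjusted p = 6.16e-04) and 2.57 in brain (exact rank-sum adjusted p = 0.0121), so it was TE in no tissue.

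In brain, most blood cell and vessel wall entries were called lower than in the other tissues, with TMM scaling only. Of the 11 blood cell entries 0 were higher and 9 lower, and of the 6 vessel wall entries 0 were higher and 5 lower. Their summed levels were 13109 to 42968 RPM and 20317 to 80175 RPM. In RPM these sums were not the lowest. The blood cell median was 20193 RPM, between 5003 RPM in testis and 706407 RPM in plasma. The vessel wall median was 46878 RPM, between 5130 RPM in plasma and 362525 RPM in colon.

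The sciatic nerve, the other nervous tissue, had 1249 and 741 RPM of cfa-miR-222 and 804 and 493 RPM of cfa-miR-221. Both of its cfa-miR-222 values lay below the lowest brain sample. Against the other tissues the change was 0.87 for cfa-miR-222 (SE 0.41, edgeR adjusted p = 0.0847) and -0.26 for cfa-miR-221 (SE 0.51, edgeR adjusted p = 0.831). Set directly against brain, neither passed the test (-0.65, edgeR adjusted p = 0.334, and -0.76, edgeR adjusted p = 0.307). DESeq2 called both lower in sciatic nerve, at -1.33 (DESeq2 adjusted p = 0.00830) and -1.48 (DESeq2 adjusted p = 0.0147), but the median of all miRNAs also moved, from -0.72 with TMM to -1.29, and 32.7% of miRNAs were called lower.

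In liver and colon both members were above the mean of the other tissues by the edgeR test, though other tissues had higher medians. In liver the cfa-miR-221 values were 1020.5, 947, 1114, 1304 and 1433 RPM, and those of cfa-miR-222 were 957, 884, 1126, 1016 and 1096 RPM. These were among the tightest groups, with the highest sample 1.51-fold and 1.27-fold the lowest. The changes were 1.10 (SE 0.29, edgeR adjusted p = 0.00143) and 1.38 (SE 0.26, edgeR adjusted p = 9.00e-06), where 23.3% of miRNAs were called higher and 12.3% lower. The call for cfa-miR-221 was lost with DESeq2 (0.63, DESeq2 adjusted p = 0.0641). Of the blood cell entries 6 were higher and 1 lower in liver, while 0 of the vessel wall entries were called.

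In colon, replicates 1, 2, 3 and 5 had 649, 1008, 786 and 2409 RPM of cfa-miR-221. For cfa-miR-222 the values were 699, 668, 827 and 1667 RPM. Replicate 5 stood above the other 3 for both. The changes were 1.02 (SE 0.32, edgeR adjusted p = 0.0138) for cfa-miR-221 and 1.18 (SE 0.29, edgeR adjusted p = 0.00118) for cfa-miR-222, where 18.5% of miRNAs were called higher and 6.25% lower. By the exact rank-sum test on RPM neither passed in colon (adjusted p = 0.765 and 0.527). Without replicate 5 the edgeR changes were 0.79 (edgeR adjusted p = 0.129) and 1.12 (edgeR adjusted p = 0.00726). Of the vessel wall entries 4 were higher and 1 lower in colon, with a summed level of 143137 to 449306 RPM.

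Along the gut, cfa-miR-222 was higher in colon than in the mean of the 3 small intestinal segments by the edgeR test. Its medians were 242 RPM in duodenum (range 220.1 to 413), 373 RPM in jejunum (189.9 to 430.3) and 605 RPM in ileum (486.3 to 895), against 763 RPM in colon. All 4 colon samples were above all samples of duodenum and jejunum, and overlapped those of ileum. Colon was not tested against ileum alone. Colon minus the mean of the 3 small intestinal segments was 1.24 (SE 0.33, edgeR adjusted p = 0.0141), and this comparison called 2.92% of miRNAs higher. The adjusted p rose to 0.0569 without colon replicate 3 and to 0.0547 without replicate 5. With the library size alone the call was lost as well. The medians of cfa-miR-221 were 497 RPM in duodenum, 778 RPM in jejunum and 1024 RPM in ileum, and its difference was 0.59 (SE 0.37, edgeR adjusted p = 0.462).

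Testis, heart and skeletal muscle had the least of both members. In testis cfa-miR-221 was at 79.2, 354, 133, 72.9 and 48.8 RPM and cfa-miR-222 at 113, 252, 191, 86.5 and 87.1 RPM. Replicates 2 and 3, the libraries low in testis markers, were the highest for both. The changes were -2.57 (SE 0.41, edgeR adjusted p = 2.12e-07) and -1.98 (SE 0.36, edgeR adjusted p = 3.26e-06), where 16.2% of miRNAs were called lower and 34% higher. Without replicate 3 they were -2.86 (edgeR adjusted p = 3.12e-07) and -2.43 (edgeR adjusted p = 4.68e-07). Without replicate 2 they were -3.37 (edgeR adjusted p = 2.79e-09) and -2.38 (edgeR adjusted p = 5.90e-07), and without both libraries -3.94 (edgeR adjusted p = 4.19e-09) and -2.94 (edgeR adjusted p = 2.34e-07). Of the 11 blood cell entries 0 were higher and 10 lower in testis, with a median of -2.91 and a summed level of 1706 to 9233 RPM, and of the 6 vessel wall entries 4 were higher and 2 lower. The part of these cells in the pair's level was not tested.

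In heart the cfa-miR-221 samples had 149, 131, 377, 88.1 and 113 RPM, and those of cfa-miR-222 had 112, 69.0, 279, 63.6 and 91.0 RPM. Replicate 3 was the highest for both members. The changes were -1.80 (SE 0.38, edgeR adjusted p = 7.75e-05) and -1.83 (SE 0.35, edgeR adjusted p = 1.45e-05), against 17.5% of miRNAs called lower and 21.9% higher. The heart had all 6 vessel wall entries called higher, at a summed level of 112038 to 179519 RPM, with both members of the pair lower. Of the blood cell entries 1 was higher and 6 of 11 lower in heart, with a median of -1.47. The part of these cells in the pair's level was not tested.

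Skeletal muscle had the widest spread of any tissue for cfa-miR-221, with the highest sample 42.0-fold the lowest. cfa-miR-221 was at 173, 23.4, 532, 445 and 12.7 RPM, and cfa-miR-222 at 106, 23.4, 273, 322 and 19.0 RPM. Replicates 2 and 5 were the lowest of all 76 libraries for both, on 10 and 4 reads of cfa-miR-221 and 10 and 6 reads of cfa-miR-222, while replicates 3 and 4 were the highest. The changes were -1.17 (SE 0.36, edgeR adjusted p = 0.00617) and -1.40 (SE 0.34, edgeR adjusted p = 5.69e-04), where 16.5% of miRNAs were called lower. Without the library labelled replicate 4 they were -1.37 (edgeR adjusted p = 0.00466) and -1.68 (edgeR adjusted p = 1.90e-04). Without replicate 2 the change of cfa-miR-221 was -0.77 (edgeR adjusted p = 0.136). Heart and skeletal muscle were not distinguished from each other, with differences of -0.59 for cfa-miR-221 (95% interval -1.46 to 0.28, edgeR adjusted p = 0.426) and -0.40 for cfa-miR-222 (95% interval -1.20 to 0.40, edgeR adjusted p = 0.598).

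Pancreas was low for cfa-miR-221, with 222.7, 209, 207.8, 314 and 247 RPM and a change of -1.22 (SE 0.36, edgeR adjusted p = 0.00442), where 19.2% of miRNAs were called lower. cfa-miR-222 was at nearly the same level there, with 203, 230.0, 232, 355 and 295 RPM, and a change of -0.62 (SE 0.31, edgeR adjusted p = 0.117).

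Plasma had the widest spread for cfa-miR-222, with the highest sample 27.2-fold the lowest, and the next widest for cfa-miR-221, at 13.5-fold. cfa-miR-221 was at 171, 2317, 322, 749.8 and 436 RPM and cfa-miR-222 at 40.0, 1087, 80.0, 538 and 283 RPM. Replicate 2 had the most of both. It also had the most cfa-miR-223, a myeloid miRNA, at 1501 RPM against 116 to 507 RPM in the other plasma samples, and the most of the erythroid cfa-miR-451, at 116508 RPM against 52993 to 98088 RPM. cfa-miR-486, also erythroid, was the lowest there, at 42.3% of reads against up to 76.1%. The erythroid cfa-miR-144 ranged from 1925 to 3979 RPM in plasma and hsa-miR-144-5p from 633 to 1467 RPM, and their values by library are not given. The part of these cells in the pair's level was not tested.

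The change of cfa-miR-221 in plasma was 0.86 (SE 0.29, edgeR adjusted p = 0.0105), where 27.9% of miRNAs were called higher and 24.6% lower, and without replicate 2 it was 0.24 (edgeR adjusted p = 0.688). The call was also lost with the library size alone. In RPM, plasma ranked 12 of the 16 tissues by median for cfa-miR-221, and its mean was 0.956-fold that of all other samples. For cfa-miR-222 the change was 0.27 (SE 0.29, edgeR adjusted p = 0.545), and -0.27 (edgeR adjusted p = 0.584) without replicate 2. Of the blood cell entries 9 were higher and 1 lower in plasma, and of the vessel wall entries 0 were higher and 5 lower, at a summed level of 2486 to 17595 RPM. Bone marrow minus plasma was 0.69 for cfa-miR-221 (SE 0.44, edgeR adjusted p = 0.228) and -0.46 for cfa-miR-222 (SE 0.41, edgeR adjusted p = 0.419). Without plasma replicate 2 these differences were 1.79 (edgeR adjusted p = 9.29e-04) and 0.56 (edgeR adjusted p = 0.295). The call for cfa-miR-221 changed in 7 of 11 fits with 1 library left out (0.48 to 1.79), and also with DESeq2 and with the library size alone.

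The remaining tissues were intermediate and passed the test for neither member. In kidney cfa-miR-221 ranged from 324 to 886 RPM and cfa-miR-222 from 267 to 548 RPM. Lung ranged from 559 to 988 RPM and from 377 to 633 RPM, and duodenum, jejunum and ileum also belonged to this group.

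Thymus passed the test for neither member as well, but its libraries fell apart. cfa-miR-221 was at 1127, 431, 391, 1017 and 621 RPM and cfa-miR-222 at 1115, 304, 509.9, 1106 and 550.0 RPM. Replicates 1 and 4, those rich in cfa-miR-181a, were the highest for both members, with no overlap with the other 3. The changes were 0.14 (SE 0.32, edgeR adjusted p = 0.902) and 0.65 (SE 0.28, edgeR adjusted p = 0.0747). Without replicates 2, 3 and 5 they were 0.64 (edgeR adjusted p = 0.438) and 1.17 (edgeR adjusted p = 0.0368), a choice made after these values were seen.

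The ratio of the members within a library does not depend on library size, and is given as a description with no test. cfa-miR-221 had more reads than cfa-miR-222 in 54 of 76 libraries, fewer in 21 and as many in 1. The median ratio over all libraries was 1.34. By tissue the median ratio ran from 4.38 in bone marrow, through 2.26 in jejunum and 2.13 in plasma, to 0.700 in testis, 0.654 in sciatic nerve and 0.584 in brain.

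**Figure D3:**
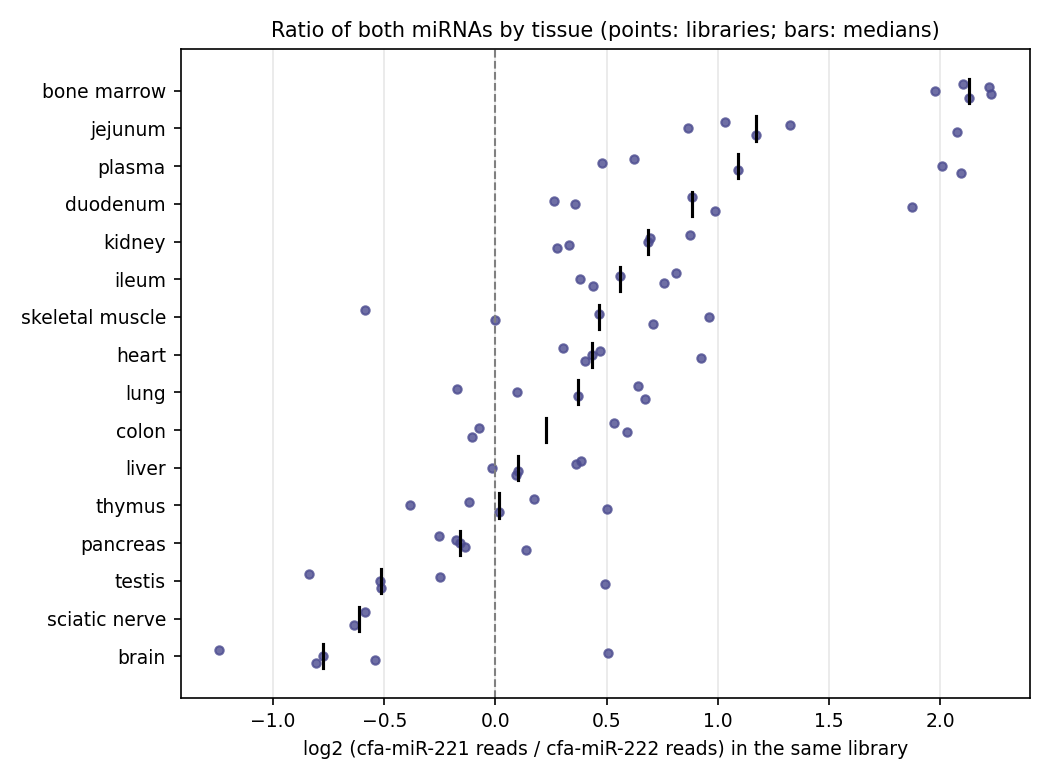
Log2 of the ratio of cfa-miR-221 to cfa-miR-222 reads in each library, by tissue. Points are libraries, black bars are medians, and the dashed line marks equal reads; the 5 bone marrow libraries sit between 1.98 and 2.23, and 4 of 5 brain libraries lie left of the line.

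Bone marrow had the most uniform ratio of the tissues with 5 samples, from 3.93 to 4.69 with an SD of 0.10 on the log2 scale. Of the other tissues, 1 jejunum library (4.22) and 2 plasma libraries (4.03 and 4.27, on 111 and 11 reads of cfa-miR-222) reached into that range, while the medians of these tissues did not. In 7 tissues, bone marrow, jejunum, plasma, duodenum, kidney, ileum and heart, cfa-miR-221 was the more abundant in every library. cfa-miR-222 was the more abundant in both sciatic nerve libraries and in 4 of 5 libraries each of brain, testis and pancreas. The exception in brain was replicate 4, at 1.42, while the lowest brain ratio was 0.423. In liver and thymus the median ratios were 1.07 and 1.01, close to equal reads.

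**Figure D4:**
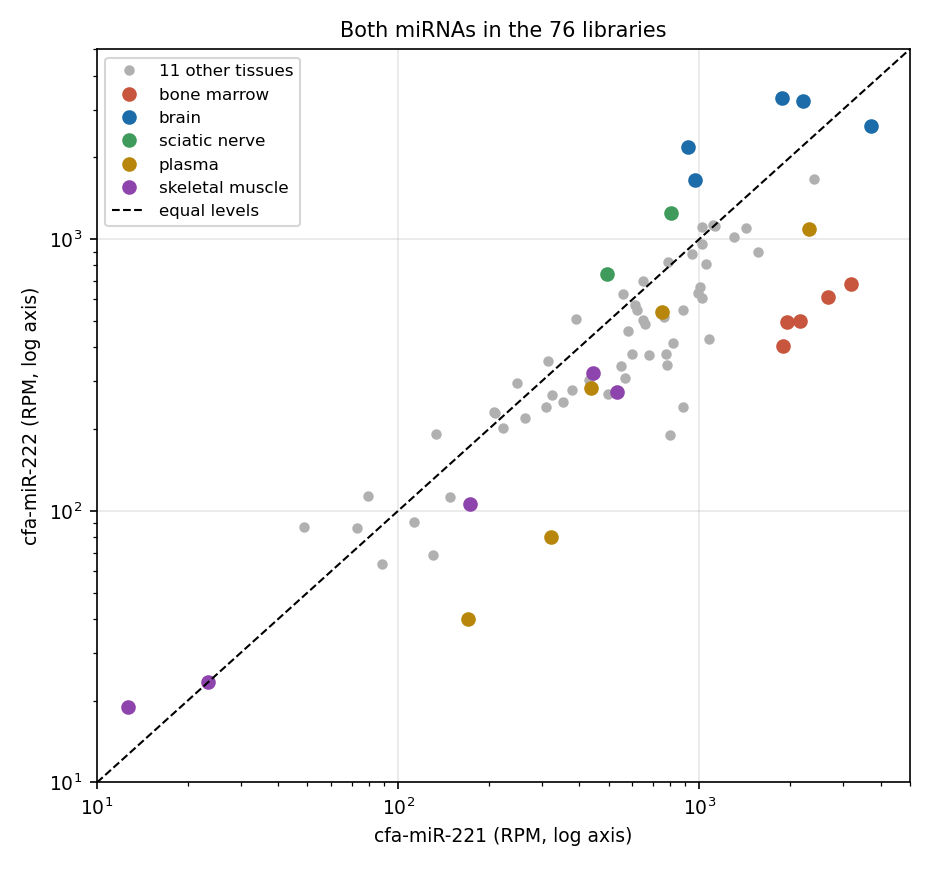
cfa-miR-222 against cfa-miR-221 in each of the 76 libraries, in RPM on log axes, with 5 tissues coloured and the others in grey. The dashed line marks equal levels; bone marrow lies below it with ratios of 3.93 to 4.69, and skeletal muscle spreads along it from 12.7 to 532 RPM of cfa-miR-221.

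The levels of the members followed each other across tissues. Spearman's correlation between their 16 tissue medians was 0.859, and each was the closest match of the other among 265 miRNAs that passed 100 RPM in any tissue. Leaving out 1 tissue at a time gave 0.829 to 0.939. With TMM-scaled RPM the correlation was 0.618, and whether each remained the closest match of the other is not given for that scaling. Within tissues, the deviations of the 76 libraries from their tissue medians, on the log2(RPM + 1) scale, had a Spearman correlation of 0.814. Both members lay on the same side of the tissue median in 49 libraries, and a library that was itself the median for either member could not count. These are descriptions, since the points share libraries and totals and a large total of 1 miRNA lowers the RPM of all others.

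After each other, the miRNAs with the most similar medians to cfa-miR-221 were cfa-miR-330 (Spearman correlation 0.782), cfa-miR-361 (0.768), cfa-miR-146a (0.715), cfa-miR-191 (0.709) and cfa-miR-98 (0.679), of 264 compared over 16 tissues. Those closest to cfa-miR-222 were cfa-miR-191 (Spearman correlation 0.756), hsa-let-7d-5p (0.744), cfa-miR-361 (0.726), cfa-miR-181b (0.679) and cfa-miR-330 (0.674). cfa-miR-146a is also 1 of the blood cell entries. With TMM-scaled RPM, 1 of these 5 remained among the closest 5 for each member.

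Each hairpin also yields a miRNA from its opposite, 5p arm, listed in the atlas under the human names. hsa-miR-221-5p had 2406 reads in all, in 72 of 76 libraries, or 2.30% of the reads of both arms (95% Wilson interval 2.21 to 2.40). hsa-miR-222-5p had 76 reads, in 34 libraries, or 0.0892% (95% Wilson interval 0.0713 to 0.112). The 5p arm was therefore the minor product of both hairpins, and far more so for miR-222.

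hsa-miR-221-5p was highest in brain, at a median of 65.6 RPM, with a change of 1.36 (SE 0.27, edgeR adjusted p = 9.58e-06). Bone marrow, where cfa-miR-221 was highest, had a median of 29.3 RPM on 2 to 7 reads per library. The change there was 0.59 (SE 0.38, edgeR adjusted p = 0.230). In plasma the 5p arm was lower than elsewhere (-1.19, SE 0.40, edgeR adjusted p = 0.00907), where 24.6% of miRNAs were called lower. That call rested on 0, 27, 1, 7 and 1 reads in the 5 libraries. The plasma median of 0.721 RPM lay below the 3-read limit of each plasma library, 1.70 to 10.9 RPM. The 5p arm made up 0.560% of the reads of both arms pooled over the plasma libraries, compared with 3.38% in brain and 4.81% in pancreas. The median over single plasma libraries was 0.223%, since replicate 2 gave 4092 of the 6391 cfa-miR-221 reads. Spearman's correlation between hsa-miR-221-5p and cfa-miR-221 over the 16 tissue medians was 0.891. hsa-miR-222-5p was too low for the test and had 0 reads in every plasma and skeletal muscle library, among 3294 and 704 reads of cfa-miR-222.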

How the data were processed

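Small RNA libraries of 16 beagle tissues were used. The deposited counts were made by the authors, who trimmed the adaptors, mapped reads to CanFam3.1 with OSA, allowing no mismatch, dropped reads that mapped to many places and used bedtools to count those over annotated or putative miRNA loci of dog, rat or human. How such reads were shared between near-identical miRNAs cannot be read from the counts. The deposited RPM, treated here as a signal value, is the count divided by the deposited total of reads on miRNAs, and the recomputed values differed from it by at most 2.89e-09 as a relative difference. Summed over miRNAs, counts exceeded the deposited total of a library by 1.16% or less. The table lists no zero counts, and missing entries were set to 0. The authors' highest RPM of each miRNA was not used. One sample name, a sciatic nerve pool, could not be mapped to a labelled sample, and 1 of 77 labelled samples, from colon, had no values.

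From the counts, edgeR 4.0.16 (R 4.3.3) fitted all 76 libraries by tissue with TMM factors, filterByExpr and the robust quasi-likelihood test, with contrasts of 1 tissue against the mean of the other 15 and 4 named pairs of tissues. Intervals are the estimate with 1.96 SE on each side. TE used the study's fold limit of 5 and an exact two-sided rank-sum test (midranks for ties), adjusted over 650 miRNAs within a tissue. The edgeR fit was tested on simulated independent counts with changes in brain only, and the exact rank-sum p-value against enumeration on small draws. The simulated counts held no shared dogs and no outlying libraries. No 2 libraries of a tissue were alike within sampling noise (147 pairs, lowest chi-square per degree of freedom 10.3). Alternatives were DESeq2 1.42.0, RLE factors, library size alone, no count filter, only the tissues compared, the rank-sum test, TMM-scaled RPM and leaving out each library. The miRNAs named were the members, their opposite arms, the 5 most similar by tissue median and the entries of the marker lists. Members and lists were chosen with earlier results of these data known. No sequence file was used, and no sequence is given.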

Additional observations from a re-analysis of the deposited data

Results flagged for a closer look

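Single samples stood far from the others of their tissue in 8 of 45 groups of 4 or 5 samples examined by Dixon's gap ratio. Its usual rate of about 1 in 20 by chance holds for normally distributed values. Levels were examined in RPM without a log, so the 8 cannot be set against that rate. Each was the highest of its group. For cfa-miR-221 these were heart replicate 3 at 377 RPM (others 88.1 to 149), lung replicate 5 at 988 RPM (others 559 to 650.0), plasma replicate 2 at 2317 RPM (others 171 to 749.8) and testis replicate 2 at 354 RPM (others 48.8 to 133). For cfa-miR-222 they were colon replicate 5 at 1667 RPM (others 668 to 827), duodenum replicate 1 at 413 RPM (others 220.1 to 269) and heart replicate 3 at 279 RPM (others 63.6 to 112). The log2 ratio of cfa-miR-221 to cfa-miR-222 was 0.92 in heart replicate 2 (others 0.31 to 0.47), on 55 and 29 reads. Heart replicate 3 was the only library that stood apart for both members.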

How the results depend on the processing

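No paired analysis was possible because the labels carry no dog or replicate number. Over all alternatives, 498 values kept their direction and their side of the threshold or stayed within the spread. Of the others, 45 changed sign, 30 passed the test only in the alternative, 16 missed it there and 3 descriptive values moved. Values are log2 fold changes against the other tissues unless a pair of tissues is named, and the cause of a change was not tested.

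With DESeq2, cfa-miR-221 passed the test in brain (1.38), in bone marrow minus plasma (1.04) and in sciatic nerve minus brain (-1.48), missed it in liver (0.63) and changed sign in duodenum (-0.0595). cfa-miR-222 passed in sciatic nerve (0.94) and in sciatic nerve minus brain (-1.33) and changed sign in bone marrow (0.14) and lung (-0.42). RLE factors gave 1.38, 1.04, -1.48, 0.63 and -0.0592, and 0.95, -1.33, 0.15 and -0.41, in that order. With library size alone, cfa-miR-221 passed in brain (1.73) and bone marrow minus plasma (1.57), missed in colon (1.01) and plasma (0.37), and changed sign in duodenum (-0.19), kidney (-0.12), lung (0.12) and sciatic nerve (0.0465). cfa-miR-222 then passed in sciatic nerve (1.19), missed in colon minus small intestine (1.28), and changed sign in bone marrow (0.25), kidney (-0.27), plasma (-0.18) and bone marrow minus plasma (0.40). This scaling moved the median of all miRNAs by -0.59 in kidney to 1.09 in brain.

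The rank-sum test gives no fold change, so the values beside it are log2 ratios of mean RPM to the mean of all other samples. Sign changes are those of that ratio, not of the ranks. By this test cfa-miR-221 passed in brain (1.36) and missed in colon (0.58), liver (0.52), pancreas (-1.87) and skeletal muscle (-1.88). Its ratio changed sign in duodenum (-0.62), jejunum (-0.0187), kidney (-0.55), plasma (-0.0644) and thymus (-0.23). cfa-miR-222 missed in colon (0.70), and its ratio changed sign in kidney (-0.71), lung (-0.19) and plasma (-0.63). Without the count filter, cfa-miR-221 changed sign in lung (0.22) and passed in bone marrow minus plasma (1.12), and cfa-miR-222 changed sign in bone marrow (0.21) and passed in thymus (0.83). With only the compared tissues, cfa-miR-221 passed in bone marrow minus plasma (0.89). The number of tissues with TE for cfa-miR-222 was 0 with TMM-scaled RPM. Spearman's correlation between the members was 0.779 with tissue means and 0.618 with TMM-scaled RPM.

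Leaving out 1 library at a time, with testis replicate 3 also left out of every contrast after its values were seen, gave these ranges where a call or sign changed. For cfa-miR-221 they were colon 0.79 to 1.24, duodenum -0.22 to 0.17, kidney 0.23 to 0.88, lung -0.0673 to 0.19, plasma 0.24 to 1.07, sciatic nerve -0.64 to 0.19, skeletal muscle -2.01 to -0.77, thymus -0.0191 to 0.41, heart minus skeletal muscle -0.89 to 0.10 and bone marrow minus plasma 0.48 to 1.79. For cfa-miR-222 they were bone marrow -0.25 to 0.34, lung -0.0729 to 0.31, pancreas -0.77 to -0.65, plasma -0.27 to 0.53, thymus 0.45 to 0.85, heart minus skeletal muscle -0.69 to 0.0600, bone marrow minus plasma -0.74 to 0.56 and colon minus small intestine 1.13 to 1.37. With thymus replicates 2, 3 and 5 left out together, also chosen after seeing the data, cfa-miR-222 passed in thymus (1.17). A lone sciatic nerve library was assumed to vary like the other groups.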
